A study of Mus musculus with 6 samples.

Results

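The MYC family and the cyclin D pathway are described here through 10 genes, namely *Myc*, *Mycn*, *Mycl*, *Ccnd1*, *Ccnd2*, *Ccnd3*, *Cdk4*, *Cdk6*, *Cdkn1b* and *Rb1*. They were chosen by name, as the rows of the deposited table that carry these symbols, out of 23420 genes listed. Earlier results of these data were known when they were chosen. All 10 were found, 9 under the same symbol and *Mycl* under its older symbol *Mycl1*, and all 10 passed the filter on low values (3 or more libraries with a normalized count of 1 or more). Whole embryonic mouse lungs at E11.5 (embryonic days *post coitum*) were compared between 3 control pools, labelled Raptorf/+; ShhCre/+, and 3 mutant pools, labelled Raptorf/f; ShhCre/+, each made by combining 3 or 4 lungs of the same genotype. Both groups carried the *Shh*-driven Cre allele, which acts in the lung epithelium and not in the mesenchyme, and the controls carried a floxed *Rptor* allele, which Cre also recombines, beside a wild-type copy. *Rptor* encodes RAPTOR, the subunit that defines mTOR complex 1 (mTORC1), a kinase complex that promotes cell growth and protein synthesis. The comparison asks how gene expression differs in lungs whose epithelium lacks mTORC1.

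MYC, MYCN and MYCL are transcription factors that pair with MAX, bind the DNA word called the E-box, and raise the expression of genes for ribosome production, metabolism and cell division. The D cyclins are made in response to growth signals and activate the kinases CDK4 and CDK6. These phosphorylate the retinoblastoma protein RB1, which then releases E2F transcription factors so that the cell can enter S phase, while p27, the product of *Cdkn1b*, binds and restrains cyclin-kinase complexes. In the embryonic lung, *Mycn* is known for its expression in the growing distal epithelium.

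Promoter sequences are shown for *Cdk4* and *Mycn*, which held words bound by the factors of this network, and for *Cdkn1b*, the member with a positive fold change. They were read from the RefSeq table of GRCm38.p6, in the sense of the gene, and stop before the first annotated exon. The table held a promoter for 6 of the 10 members, which were *Mycl*, *Cdk6*, *Cdkn1b*, *Cdk4*, *Mycn* and *Ccnd3*. The words searched on both strands were the E-box CACGTG, which reads the same on both strands, the E2F words TTTCCCGC and TTTGGCGC, and the CCAAT box. Within the 250 bases before the start, the E-box was present in 6.02% of 32851 promoters, either E2F word in 1.3% and the CCAAT box in 33.8%. The matches are a description of these windows and do not show binding.

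Cdk4, chr10:127063285-127063533, plus strand, E-boxes in capitals: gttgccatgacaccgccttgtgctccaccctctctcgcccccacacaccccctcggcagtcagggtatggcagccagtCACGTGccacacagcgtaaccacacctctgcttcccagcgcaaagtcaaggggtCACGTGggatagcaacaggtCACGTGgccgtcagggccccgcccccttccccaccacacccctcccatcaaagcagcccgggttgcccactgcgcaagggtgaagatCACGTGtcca

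Mycn, chr12:12941915-12942086, minus strand, E2F words in capitals: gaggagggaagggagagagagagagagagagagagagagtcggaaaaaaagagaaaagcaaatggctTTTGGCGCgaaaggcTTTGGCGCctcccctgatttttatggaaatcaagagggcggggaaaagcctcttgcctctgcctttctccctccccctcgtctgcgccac

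Cdkn1b, chr6:134920151-134920400, plus strand, CCAAT boxes in capitals: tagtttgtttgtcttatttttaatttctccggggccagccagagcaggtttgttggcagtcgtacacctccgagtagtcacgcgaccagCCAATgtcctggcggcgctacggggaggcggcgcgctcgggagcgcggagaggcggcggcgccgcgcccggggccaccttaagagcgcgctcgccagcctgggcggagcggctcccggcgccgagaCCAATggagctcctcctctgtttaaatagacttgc

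The *Cdk4* window held 4 E-boxes, the first ending 167 and the last ending 6 bases before the start, and 0.0213% of all promoters held at least 4. The *Mycn* window held 2 E2F words, and 0.0274% of promoters held at least 2. The *Cdkn1b* window held 2 CCAAT boxes, which 10.1% of promoters reached. In the other promoters of members, *Cdk6* had 1 E-box, 1 of the 2 *Ccnd3* starts had 1 CCAAT box, and *Mycl* had none of these words.

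The values are normalized counts, that is, read numbers scaled by a factor for each library, and the 6 libraries held 20197642 to 21276090 reads. Differences between groups were tested with limma over 17168 genes on log2(normalized count + 1), a scale that understates the change of genes with low counts, and p-values were adjusted over all these genes. The targeted gene did not separate the groups: *Rptor* was at 2199 ± 77.0 (SD, n = 3 pools) in control and 2103 ± 69.1 (SD, n = 3) in mutant lungs, counted over the whole gene and in all cell types. At an adjusted p under 0.05 there were 86 genes (0.501% of those tested), 54 of them lower in the mutant pools (0.315%). Control pool 3 stood apart from the other controls, with a chi-square per degree of freedom of 7.9 and 13.9 against control pools 1 and 2, where these differed from each other by 4.41 and the mutant pools among themselves by 2.19 to 4.51. Without it, 468 genes passed. The study's methods speak in general of combining mutants of several litters and do not give the litters of each pool, so the p-values measure the spread between these pools. In limma the spread of each gene was moderated by a variance trend over all tested genes.

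Among the 10 members, *Ccnd1* fell in the mutant lungs and was the 1 gene that passed the adjusted threshold. *Ccnd2* and *Mycn* had all 3 mutant pools below all 3 control pools, and *Cdkn1b* had all 3 above, without passing that threshold. The other 6 members had overlapping groups. Of the 10, 9 had a log2 fold change below 0, with a median of -0.092, while the median of all tested genes was -0.00212. An unadjusted p under 0.05 was reached by 3 members that were lower and 1 that was higher, where 6.89% of all tested genes were lower and 6.67% higher by the same rule. Every mutant pool lay below every control pool for 3 members, against 10.5% of all tested genes, and above for 1 member, against 9.77%. edgeR on the recovered reads, which called 79 genes (0.539% of the 14670 it tested), also called *Ccnd1* (adjusted p = 0.0424) and no other member.

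**Figure D1:**
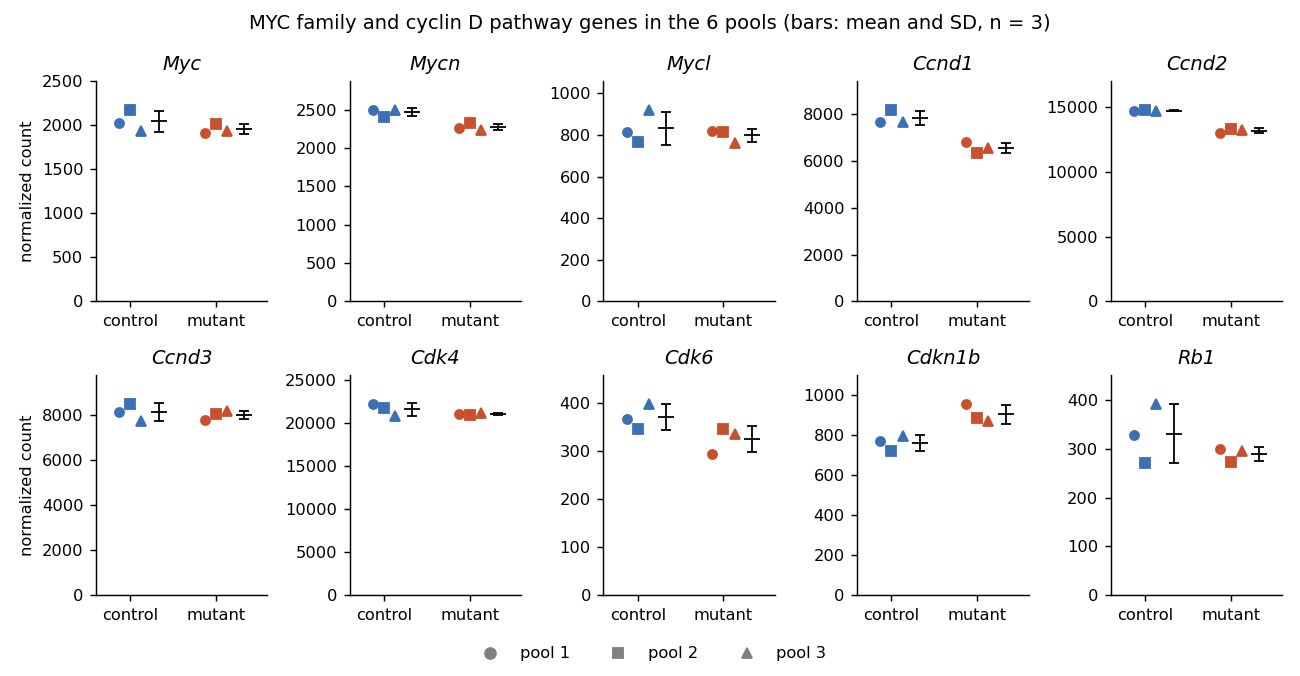
Normalized counts (y axis, from 0) of the 10 members in the 3 control pools (blue) and 3 mutant pools (red), with the pool number as the shape and the mean and SD (n = 3) as black bars. *Ccnd1*, *Ccnd2* and *Mycn* are lower in every mutant pool than in any control pool and *Cdkn1b* is higher, while the groups of the other 6 genes overlap.

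*Ccnd1* encodes cyclin D1, whose transcription is a common end point of growth factor and Wnt signals. It lies on chromosome 7 of GRCm38 from 144929931 to 144939925, on the minus strand. Control pools 1, 2 and 3 had normalized counts of 7691, 8202 and 7662, whereas mutant pools 1, 2 and 3 had 6805, 6370 and 6571. The groups were far apart for their spread, since the lowest control pool exceeded the highest mutant pool and the SD was 3.86% of the mean in control and 3.31% in mutant lungs. The mean fell by 16.2%, from 7852 ± 303 (SD, n = 3) to 6582 ± 218 (SD, n = 3). The log2 fold change was -0.25 (standard error 0.04, 95% interval -0.35 to -0.16, limma adjusted p = 0.0398). The adjusted p was close to the threshold and the call was lost without control pool 1 (adjusted p = 0.245) and without mutant pool 1, 2 or 3 (0.126, 0.18 and 0.252), although the log2 fold change stayed between -0.28 and -0.22 in the 6 fits that left out a pool. It was also lost without the variance trend (0.243) and without the filter on low values (0.186).

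*Ccnd2* encodes cyclin D2, a second D cyclin with its own pattern across embryonic tissues, and lies on chromosome 6 from 127125162 to 127152193, on the minus strand. It had the highest normalized count of the D cyclins, with 14679, 14796 and 14731 for control pools 1, 2 and 3 against 12973, 13337 and 13203 for mutant pools 1, 2 and 3. The control pools were almost equal, with an SD of 0.396% of the mean, and the groups did not overlap. Control lungs averaged 14735 ± 58.4 (SD, n = 3) and mutant lungs 13171 ± 184 (SD, n = 3). The log2 fold change of -0.16 (95% interval -0.24 to -0.09) had a limma adjusted p of 0.0797 and did not pass. Of the 6 fits that left out a pool, *Ccnd2* passed in 1, without control pool 3 (limma adjusted p = 0.0172). In that fit 468 of all tested genes passed, in place of 86. It passed in 0 of the 7 other alternative fits (adjusted p from 0.0702 to 0.291).

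*Ccnd3*, the gene of cyclin D3, lies on chromosome 17 from 47505051 to 47599691, on the plus strand. It was measured at normalized counts of 8135, 8497 and 7726 in the controls and of 7782, 8023 and 8167 in the mutants. The groups overlapped almost fully, with a mean of 8119 ± 386 (SD, n = 3) against 7991 ± 195 (SD, n = 3). The log2 fold change was -0.02 (limma adjusted p = 0.868), and its 95% interval ran from a difference of -7.94% to 5.32%, which does not reach the fall of *Ccnd1*. The sign of this value turned without control pool 2 (log2 fold change 0.01). The annotation names a pseudogene, *Ccnd3-ps*, which is not among the genes listed with counts. The *Ccnd3* count is uncertain where reads could match both copies.

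The balance of the D cyclins was compared within each pool, where the size factor of the library cancels. The log2 ratio of *Ccnd3* to *Ccnd1* was 0.08, 0.05 and 0.01 for control pools 1, 2 and 3 against 0.19, 0.33 and 0.31 for mutant pools 1, 2 and 3, so that every mutant pool had relatively more *Ccnd3*. The mean was 0.05 ± 0.03 (SD, n = 3) in control and 0.28 ± 0.08 (SD, n = 3) in mutant pools, a difference of 0.23 (two-sided exact permutation test, p = 0.1 and 0.233 adjusted over the 7 ratios examined). A p of 0.1 is the smallest that this design can give. The log2 ratio of *Ccnd3* to *Ccnd2* was -0.85, -0.80 and -0.93 in the controls and -0.74, -0.73 and -0.69 in the mutants, a difference of 0.14 with no overlap (exact permutation test, p = 0.1, adjusted 0.233). *Ccnd3* itself overlapped between groups, while *Ccnd1* and *Ccnd2* were lower in every mutant pool, so these separations are no further result. The ratio of *Ccnd2* to *Ccnd1* overlapped between the groups, with a mean log2 difference of 0.09 (exact permutation test, p = 0.3, adjusted 0.42).

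Per kilobase of annotated exon, *Ccnd1* was at 1667 ± 64.4 (SD, n = 3) normalized counts and *Ccnd2* at 1566 ± 6.21 (SD, n = 3) in control lungs, *Ccnd1* being above *Ccnd2* in each control pool, with *Ccnd3* lower at 925 ± 44.0 (SD, n = 3). In mutant lungs *Ccnd1* (1398 ± 46.2, SD, n = 3) and *Ccnd2* (1400 ± 19.6, SD, n = 3) did not differ beyond their spread, above *Ccnd3* at 911 ± 22.2 (SD, n = 3). The sum of the D cyclins per kilobase of exon, a measure added after the values were seen, was between 4073 and 4283 in the control pools and between 3685 and 3730 in the mutant pools. *Ccnd1* made up 39.6% to 40.7% of that sum in control and 36.7% to 38.9% in mutant pools, and *Ccnd3* made up 21.6% to 22.6% and 23.9% to 25.0%. This sum and these shares are built from the same counts, so they are no further result. Such levels per length use GENCODE M21 exons, which may not be those that were counted. In that annotation 23.4% of the *Ccnd1* exon bases overlap exons of *Lto1* on the opposite strand, and the sources used here do not say whether counting used strand, so reads of the pair cannot be told apart there. *Lto1*, listed as *Oraov1*, was at 337 ± 12.2 (SD, n = 3) in control and 352 ± 22.1 (SD, n = 3) in mutant lungs, far below *Ccnd1* and with overlapping groups.

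**Figure D2:**
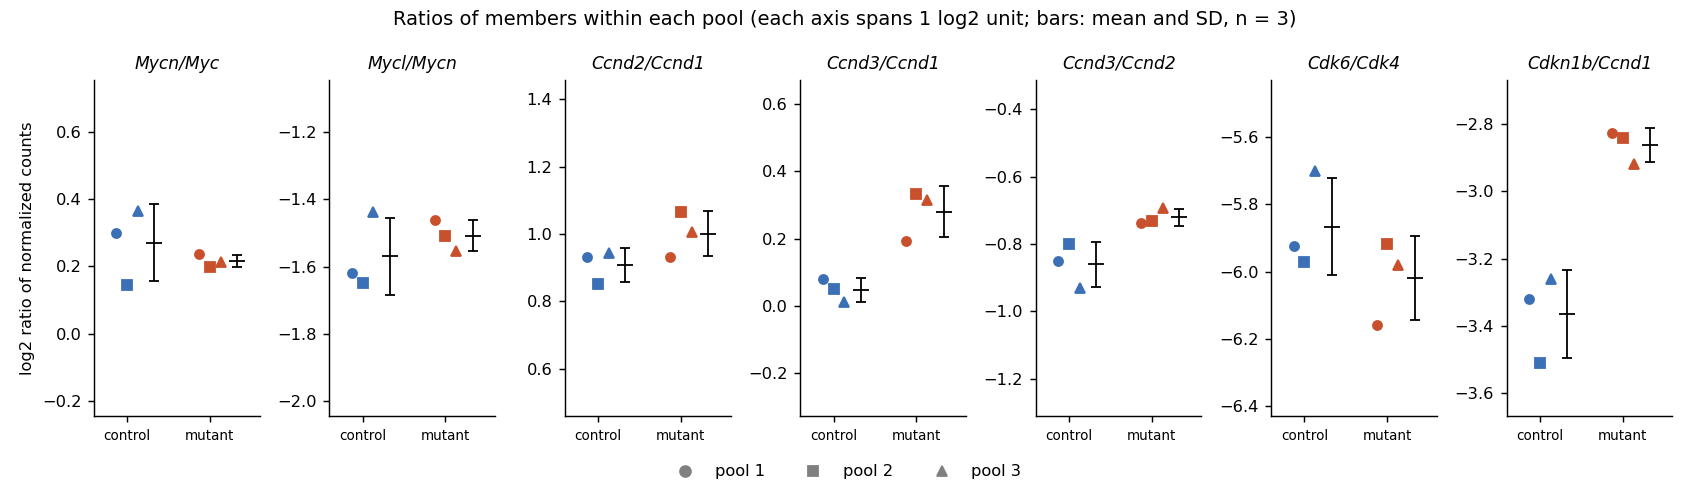
Log2 ratio of the normalized counts of 2 members in the same pool (y axis, each panel spanning 1 log2 unit), for control (blue) and mutant (red) pools, with the mean and SD (n = 3) as black bars. *Ccnd3/Ccnd1*, *Ccnd3/Ccnd2* and *Cdkn1b/Ccnd1* are higher in every mutant pool, and the other 4 ratios overlap.

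*Cdk4* and *Cdk6* encode the catalytic partners of the D cyclins. *Cdk4*, on chromosome 10 from 127063534 to 127067920 and with the E-boxes shown above, was at 22300, 21744 and 20799 in the controls and at 21082, 20929 and 21258 in the mutants (pools 1 to 3). Its groups overlapped, and the log2 fold change of -0.03 had a 95% interval from -8.00% to 3.57% (limma adjusted p = 0.742). Exons of *Tspan31* on the opposite strand overlap 19.7% of its exon bases. *Cdk6*, on chromosome 5 from 3341485 to 3531008, was at 367, 346.1 and 400 in the controls and at 295, 346.1 and 337 in the mutants. Mutant pool 2 met control pool 2, the lowest control, and the log2 fold change of -0.19 had a 95% interval from -23.6% to 1.07% (limma adjusted p = 0.401).

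Per kilobase of exon, *Cdk4* was the highest member at 6653 ± 234 (SD, n = 3) normalized counts in control lungs, and *Cdk6* was the lowest at 26.5 ± 1.93 (SD, n = 3). The log2 ratio of *Cdk6* to *Cdk4* was -5.87 ± 0.14 (SD, n = 3) in control and -6.02 ± 0.12 (SD, n = 3) in mutant pools and overlapped (exact permutation test, p = 0.3, adjusted 0.42 over 7 ratios).

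*Cdkn1b*, on chromosome 6 from 134920401 to 134925513, was the member with a positive log2 fold change. Control pools 1, 2 and 3 had normalized counts of 770, 720 and 799 and mutant pools 1, 2 and 3 had 959, 889 and 870. The mutant pools were all above the controls, with means of 906 ± 47.2 (SD, n = 3) against 763 ± 40.0 (SD, n = 3). This gave a log2 fold change of 0.25 (standard error 0.06, 95% interval 0.11 to 0.39) with a limma adjusted p of 0.132, which did not pass. Of the 6 fits that left out a pool, *Cdkn1b* passed in 1, without control pool 3 (limma adjusted p = 0.0311). In that fit 468 of all tested genes passed, in place of 86. It passed in 0 of the 7 other alternative fits (adjusted p from 0.118 to 0.312).

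Within a pool, the log2 ratio of *Cdkn1b* to *Ccnd1* was -3.32, -3.51 and -3.26 in the controls and -2.83, -2.84 and -2.92 in the mutants. This was the widest shift of the 7 ratios, with a mean difference of 0.50 and no overlap (exact permutation test, p = 0.1, adjusted 0.233). It stayed between 0.43 and 0.55 when a pool was left out. The separation follows from *Cdkn1b* being higher and *Ccnd1* lower in every mutant pool, so it is no further result. *Rb1*, whose product is the target of the cyclin D kinases, lies on chromosome 14 from 73183673 to 73325822 and was at 329, 272 and 394 in the controls and at 300.4, 275 and 296 in the mutants. In the controls it was the most variable member, with an SD of 18.4% of the mean on 263 to 396 reads per control pool, and the groups overlapped. Exons of *Lpar6* and *Rcbtb2* on the opposite strand overlap 14.9% of the *Rb1* exon bases, and both had higher counts, at 691 ± 27.8 (SD, n = 3) and 3870 ± 75.3 (SD, n = 3) in control lungs, so the *Rb1* count is uncertain without strand. Its log2 fold change of -0.17 (95% interval -0.45 to 0.10, limma adjusted p = 0.579) moved to -0.04 without control pool 3 and to -0.31 without control pool 2.

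None of the 3 MYC genes passed the adjusted threshold in limma or edgeR, and *Mycn* was the 1 of them at an unadjusted p under 0.05. *Mycn*, on chromosome 12 from 12936093 to 12941914 and with the E2F words shown above, was at 2497, 2405 and 2498 in the controls and at 2255, 2319 and 2239 in the mutants. The groups did not overlap, with means of 2467 ± 53.3 (SD, n = 3) and 2271 ± 42.3 (SD, n = 3). The log2 fold change was -0.12 (95% interval -0.21 to -0.03), with a limma adjusted p of 0.235, and it did not pass in any of the 13 alternative fits (adjusted p from 0.178 to 0.567).

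*Myc*, on chromosome 15 from 61985391 to 61990374, was at 2027, 2178 and 1938 in the controls and at 1916, 2021 and 1932 in the mutants. The groups overlapped, the log2 fold change was -0.06 (limma adjusted p = 0.638) and the 95% interval ran from -11.8% to 3.63%. *Mycl*, on chromosome 4 from 122995652 to 123002485, was at 812, 767 and 921 in the controls and at 818, 815 and 764 in the mutants. It overlapped as well (log2 fold change -0.06, 95% interval -14.1% to 7.57%, limma adjusted p = 0.776), and its sign turned without control pool 3 (log2 fold change 0.02).

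Per kilobase of exon in control lungs, *Myc* (754 ± 44.6, SD, n = 3) and *Mycn* (749 ± 16.2, SD, n = 3) did not differ beyond their spread, and *Mycl* was lower at 206 ± 19.7 (SD, n = 3). Below them came *Cdkn1b* at 168 ± 8.79 (SD, n = 3) and *Rb1* at 55.1 ± 10.1 (SD, n = 3). In mutant lungs *Myc* was at 720 ± 20.8 (SD, n = 3), *Mycn* at 689 ± 12.8 (SD, n = 3) and *Mycl* at 198 ± 7.59 (SD, n = 3), where *Mycl* and *Cdkn1b* (199 ± 10.4, SD, n = 3) did not differ beyond their spread. The log2 ratios of *Mycn* to *Myc* and of *Mycl* to *Mycn* overlapped between the groups, with mean differences of -0.05 and 0.06 (exact permutation test, p = 0.5 for each, adjusted 0.5).

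**Figure D3:**
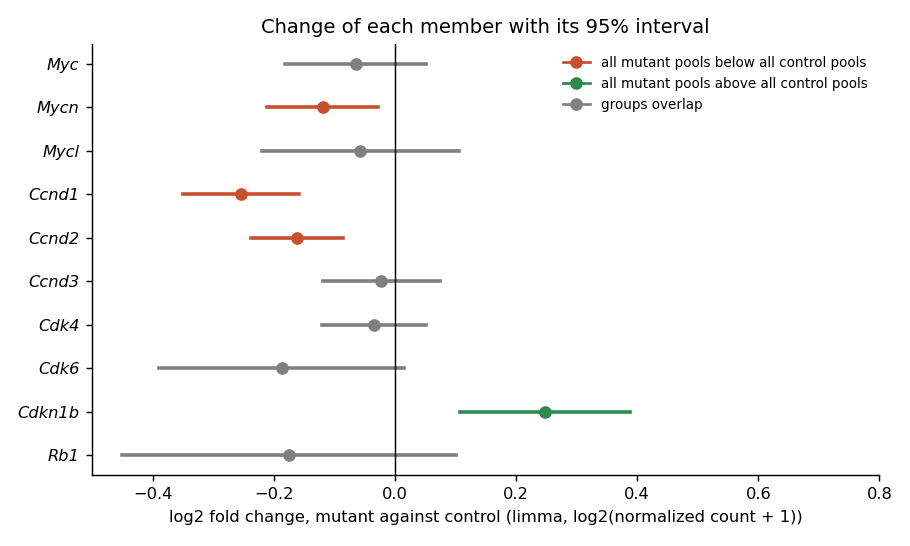
Log2 fold change of each member in mutant against control lungs (x axis, limma on log2(normalized count + 1), dots) with its 95% interval (lines), in red or green where all mutant pools lay below or above all control pools and in grey where the groups overlapped. The intervals of *Ccnd1*, *Ccnd2* and *Mycn* lie below 0 and that of *Cdkn1b* above 0, before adjustment over all genes, and the other 6 intervals include 0.

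The genes around the members were taken from lists written from general knowledge, with earlier results of these data known. The 20 MYC target genes include factors of ribosome production, polyamine and nucleotide synthesis and iron uptake. Of these, *Tfrc* fell and the other 19 did not pass, where 0.315% of all tested genes fell past the adjusted threshold. At an unadjusted p under 0.05, 8 were lower and 0 higher, where 6.89% of all tested genes were lower and 6.67% higher. All 20 log2 fold changes were below 0, with a median of -0.0855, where 8673 of all 17168 tested genes were below 0. *Tfrc*, which encodes the transferrin receptor that takes up iron, was at 2189, 2159 and 2442 in the controls and at 1618, 1523 and 1508 in the mutants. Every mutant pool was far below the controls, and the log2 fold change of -0.54 passed (limma adjusted p = 0.00728). The call was lost without control pool 1 (adjusted p = 0.125) and without mutant pool 3 (0.0871). It was also lost without the variance trend (0.172) and without the filter on low values (0.151). Without control pool 3, where 468 of all tested genes passed, 6 of the 20 passed.

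The 10 MYC partners and antagonists are MAX, the related factor MLX and factors that pair with either. Of their genes, 0 passed the adjusted threshold in limma and 0 in edgeR. *Mlxipl*, a sugar-responsive partner of MLX, was the 1 gene at an unadjusted p under 0.05, with means of 36.6 ± 8.44 (SD, n = 3) in control and 20.9 ± 2.32 (SD, n = 3) in mutant lungs (adjusted p = 0.204 for a log2 fold change of -0.76). At that unadjusted level 6.89% of all tested genes were lower. *Max* itself, named outside the rule for named genes, was at 1729 ± 89.2 (SD, n = 3) and 1796 ± 33.3 (SD, n = 3), with overlapping groups.

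Of 6 other inhibitors of cyclin-dependent kinases, 5 passed the filter on low values and 0 passed the adjusted threshold in limma or edgeR. *Cdkn1c*, which encodes the p27 relative p57, was higher in every mutant pool at an unadjusted p of 0.0127 (limma), with 13214 ± 239 (SD, n = 3) in control and 14228 ± 211 (SD, n = 3) in mutant lungs and a log2 fold change of 0.11 (adjusted p = 0.217). At an unadjusted p under 0.05, 6.67% of all tested genes were higher. *Cdkn2a*, whose product blocks CDK4 and CDK6, had 0 to 3 reads per pool and was not tested.

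Among 12 pocket protein and E2F genes, 0 passed the adjusted threshold in limma, 1 was higher and 1 lower at an unadjusted p under 0.05. By the same rule, 6.67% of all tested genes were higher and 6.89% lower. *Rbl2*, the gene of the pocket protein p130 of resting cells, was at 462 ± 37.8 (SD, n = 3) in control and 541 ± 16.6 (SD, n = 3) in mutant lungs (adjusted p = 0.212 for a log2 fold change of 0.23, limma). *E2f4*, the E2F factor that works with such pocket proteins, was at 2996 ± 87.3 (SD, n = 3) and 2712 ± 98.2 (SD, n = 3), lower by log2 fold change at -0.14 (limma adjusted p = 0.192). Neither gene had overlapping groups.

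Of 8 cyclins, kinases and their regulators that act later than cyclin D, 0 passed in limma. At an unadjusted p under 0.05, where 6.89% of all tested genes were lower, 2 were lower. These were *Ccne2*, a cyclin E gene (log2 fold change -0.17, limma adjusted p = 0.306), and *Cdc25a*, a phosphatase that activates these kinases and that is also in the MYC target list (log2 fold change -0.13, limma adjusted p = 0.256). Of 12 genes for the turnover of MYC, cyclins and p27, 0 passed in limma, and *Fbxo4*, a ubiquitin ligase subunit for D cyclins, was the 1 gene at an unadjusted p under 0.05 (log2 fold change 0.39, limma adjusted p = 0.271). At that level 6.67% of all tested genes were higher. edgeR called 0 genes in each of these 3 lists.

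**Figure D4:**
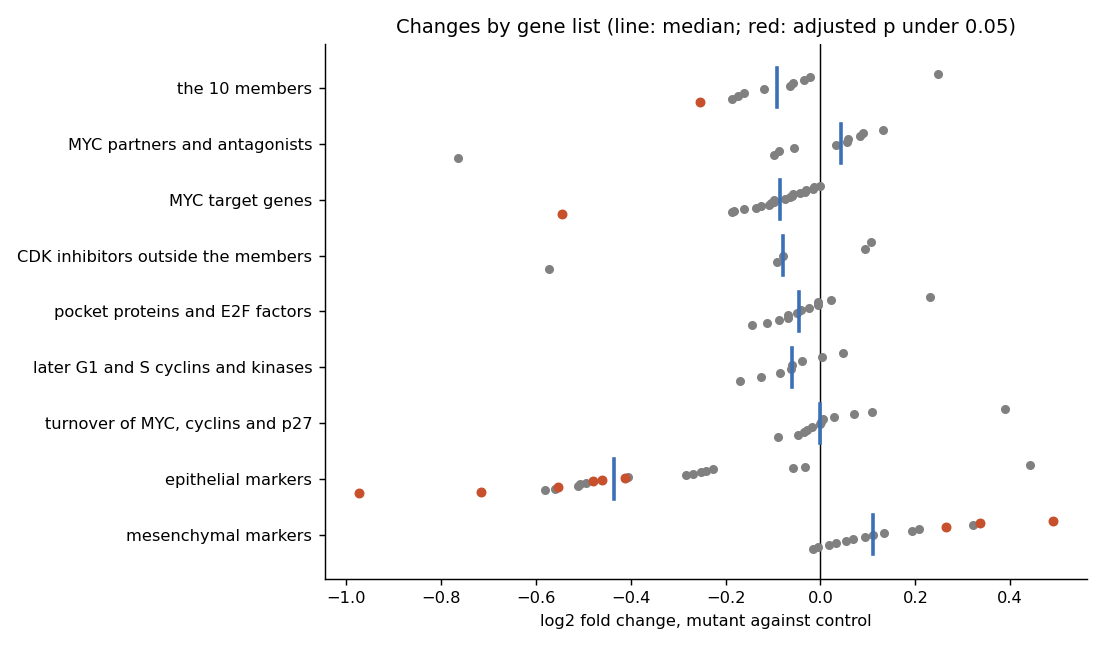
Log2 fold change in mutant against control lungs (x axis) of each tested gene in the 10 members, 6 lists of related genes and the epithelial and mesenchymal markers (rows), with the list median as a blue line and genes with a limma adjusted p under 0.05 in red. All MYC targets lie at or below 0 with *Tfrc* farthest left, and the median of the epithelial markers (-0.435) lies farther left than that of the members (-0.092), with 1 epithelial marker, *Krt19*, to the right of every member.

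In bulk samples of whole lungs, fewer cells of a type and less RNA per cell cannot be told apart. Of 20 epithelial markers, 19 had a log2 fold change below 0 (median -0.435), 6 fell past the adjusted threshold and 0 rose, and at an unadjusted p under 0.05 16 were lower and 1 higher. Over all tested genes, 0.315% fell past the adjusted threshold, and 6.89% were lower and 6.67% higher at that unadjusted level. The marker that was higher was *Krt19*, a keratin that is also in the mesothelial list, whose log2 fold change of 0.44 did not pass (limma adjusted p = 0.0734). *Shh*, *Krt7*, *Epcam*, *Nkx2-1* and *Cldn3* overlapped between groups, with log2 fold changes of -0.03, -0.06, -0.27, -0.25 and -0.28. *Cdh1*, the gene of E-cadherin, fell by 0.97 on the log2 scale (limma adjusted p = 0.00728), *Cldn6*, a claudin, by 0.71 (0.0119), and *Krt8*, a keratin, by 0.55 (0.0128). The summed normalized count of these markers was 19348 to 24110 in control and 15824 to 16958 in mutant pools, and no marker was at 0. Their part in the values of *Ccnd1*, *Ccnd2* and *Mycn* was not tested. The epithelial sum was 22213, 24110 and 19348 in the controls and 16809, 15824 and 16958 in the mutants (pools 1 to 3). The order of the control pools was the same for this sum and for *Ccnd1*, with pool 2 highest and pool 3 lowest. *Ccnd1* was nearly equal in control pools 1 and 3 (7691 and 7662). Mutant pool 2 was the lowest mutant for both, while the highest was pool 3 for the sum and pool 1 for *Ccnd1*. *Ccnd2* was also highest in control pool 2 but lowest in control pool 1, and was highest of the mutants in pool 2. *Mycn* was lowest of the controls in pool 2 and highest of the mutants in pool 2. These orders were not tested.

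The summed level of 15 mesenchymal markers was 106035 to 112333 in control and 126937 to 134880 in mutant pools, with *Col1a1*, *Col1a2* and *Col3a1*, which encode fibrillar collagens, past the adjusted threshold (log2 fold changes 0.49, 0.34 and 0.26) and 0 lower at an unadjusted p under 0.05. These collagens alone summed to 69281 to 75288 in control and 88240 to 95749 in mutant pools, and the other 12 markers, a split chosen after the values were seen, to 36222 to 38117 and 38697 to 39183. Between groups, 9 of the 12 overlapped. For all tested genes, every mutant pool lay below every control pool in 10.5% and above in 9.77%, and the rest overlapped. Of 8 endothelial markers 0 passed in limma and 6 were higher at an unadjusted p under 0.05, and of 6 mesothelial markers *Wt1* passed (log2 fold change 0.31) and 3 were higher at that level. Among all tested genes, 6.67% were higher and 6.89% lower at that level, and 0.501% passed in either direction. Of 6 blood cell and 6 cardiac markers 0 passed in limma, and *Myh6* among the cardiac markers was lower at an unadjusted p under 0.05. The part of these cell types in the values of *Cdkn1b* and the other members was not tested.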

How the data were processed

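RNA of 6 pools of whole lungs was sequenced on the BGISEQ platform. The submitters' processing notes name Trim Galore, HISAT2, featureCounts, DESeq2 and the mm10 build, without versions or roles. The signal values that the authors deposited are normalized counts, that is, read numbers scaled by a factor for each library. The authors' own fold changes and p-values in the same table were not used. Pools were grouped by the labels of the samples. Every value of each of the 6 libraries was a whole multiple of a single step within 0.01 reads (100% of values), which gave whole reads.

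The values were compared with limma 3.58.1 in R 4.3.3 (linear model, variance trend, Benjamini-Hochberg adjustment over all tested genes, threshold 0.05) on log2(normalized count + 1), for genes at or above 1 in at least 3 libraries. edgeR 4.0.16 (quasi-likelihood, TMM, filterByExpr) on the recovered reads was an alternative. Both were tested on simulated data with 200 changed genes. Those changes were larger than that of any member, and no simulated pool stood apart. The simulation therefore does not cover changes of the size of the members. Within-pool ratios used two-sided exact permutation tests. The other alternatives were no variance trend, upper-quartile scaling (75th percentile), genes at 10 or more in all pools, no filter, another pseudocount (0.1), leaving out each pool and a replicate block. Ratios were also computed with a pseudocount of 1.

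The members and gene lists were chosen with earlier results of these data known. Named genes are the members, *Rptor*, list genes with an adjusted p under 0.05 or, where none passed, up to 3 with the lowest unadjusted p under 0.05, and up to 3 markers per list with an adjusted p under 0.05. *Myh6*, *Lto1*, *Tspan31*, *Lpar6*, *Rcbtb2*, *Krt19*, *Shh*, *Krt7*, *Epcam*, *Nkx2-1*, *Cldn3*, *Max* and *Cdkn2a* were named after their values were seen. The result of 1 further marker list is not reported here. Positions and exon lengths are from GENCODE M21 (GRCm38), the assembly of mm10. As deposited, 27 gene symbols had been turned into dates. Intervals cover the spread between pools, moderated in limma by the variance trend over all tested genes.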

Additional observations from a re-analysis of the deposited data

How the results depend on the processing

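The number of genes with an adjusted p under 0.05 was 8 with limma without the variance trend and 18 without a filter on low values, instead of 86, and 71 to 91 in the other 5 alternative fits with all pools. Leaving out a pool gave 1 to 468 genes, with 1 gene without control pool 1 or mutant pool 3, 12 and 21 without mutant pools 1 and 2, 147 without control pool 2 and 468 without control pool 3. The number of members that passed was 0 in place of 1 without the trend, without the filter, with the replicate block and in 4 of the 6 fits without a pool (range 0 to 3), and the number of MYC targets that passed was 0 without the trend or the filter and 0 to 6 when a pool was left out. The number of members at an unadjusted p under 0.05 was 4 in all 7 alternative fits with all pools, and 3 to 6 when a pool was left out. For *Ccnd1* the log2 fold change was -0.25 under each of the settings that lost the call with all pools, with an adjusted p of 0.0569 under the replicate block. Over the fits without a pool it was -0.28 to -0.22 for *Ccnd1*, -0.17 to -0.15 for *Ccnd2* and 0.21 to 0.28 for *Cdkn1b*. The sign turned for *Mycl* without control pool 3 (range -0.12 to 0.02) and for *Ccnd3* without control pool 2 (range -0.0575 to 0.01), with values of 0.017 and 0.011. The sign of the difference stayed the same in all alternatives run for the 7 ratios and for the other 8 members. Among values that did not pass, leaving out a pool moved *Myc* to -0.02 (without control pool 2) and -0.10 (control pool 3), *Cdk4* to -0.01 (control pool 1) and -0.06 (control pool 3), *Cdk6* to -0.12 (mutant pool 1) and the *Cdk6/Cdk4* difference to -0.07 (control pool 3) and -0.08 (mutant pool 1). The *Mycn/Myc* difference ranged from -0.12 to -0.01, that of *Mycl/Mycn* from 0.02 to 0.13 and that of *Ccnd2/Ccnd1* from 0.06 to 0.13. The causes of these shifts were not tested.

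The replicate numbers mark no shared animal or batch in the sources used here. The deviations of same-numbered pools from their group means correlated across genes at -0.019, 0.101 and 0.031, control pool 1 correlated better with mutant pools 2 and 3 than with its own number, and the replicate block gave 71 genes. With 3 pools a group, ratios cannot reach a p under 0.1, and with a replicate block under 0.25. Changes of *Rb1* and *Cdk6* smaller than their intervals were not detectable at this depth and spread.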
